A study of Homo sapiens with 6 samples.

Results

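The genes of fatty acid and glycerolipid synthesis were examined in C4-2B prostate cancer cells that had become resistant to enzalutamide and in the parental cells they came from. The set holds 42 genes, chosen by symbol from the 58024 genes of the expression table, and covers the supply of building blocks, chain synthesis, elongation, desaturation, activation, glycerolipid assembly, storage and release. All 42 were found, and all 42 were among the 24468 genes tested (those whose 6 values averaged 0.1 FPKM or more). FPKM counts the sequenced fragments of a gene relative to its transcript length and to the size of the library, so that levels may be set side by side between genes.

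RNA-Seq was performed on total RNA of 3 parental and 3 resistant libraries, numbered 0 to 2 in each group. C4-2B is a human prostate cancer subline derived through C4-2 from LNCaP, an androgen-responsive line, by growth in mice. The resistant cells had been passaged in rising enzalutamide, an antiandrogen, from 1 to 20 µM, for 6 months or longer, before being held in 5 µM, whereas parental cells were passaged beside them in DMSO, at 1% by the series description and at a lower concentration by the methods. All cells grew in RPMI medium with serum. The label on RNA extraction names enzalutamide at 10 µM in a wording that may cover both groups. If it covers resistant cells only, the drug present at harvest and the resistant state cannot be told apart. If it covers both groups, the parental levels are those of cells exposed to the drug. Which reading holds is not settled by the sources used here. Survivors of the selection were pooled, and the resistant group is therefore 1 selected population rather than a panel of independent lines. Nothing in the labels says that libraries of a group came from separate cultures, and the p-values then measure the spread between these libraries, which may be technical. In bulk RNA, fewer cells that express a gene and less RNA per cell cannot be told apart.

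Cells make fatty acids from citrate. ACLY releases acetyl-CoA, acetyl-CoA carboxylase turns it into malonyl-CoA, and fatty acid synthase (FASN) joins these units into palmitate with NADPH from malic enzyme and other sources. Elongases of the ELOVL family lengthen the chain, desaturases of the SCD and FADS families insert double bonds, and ACSL synthetases activate fatty acids with CoA for use. Glycerol phosphate acyltransferases, AGPAT enzymes, lipins and DGAT enzymes then build triacylglycerol, which is kept in droplets coated by perilipins and is broken down again by lipases. The factor SREBP-1, encoded by SREBF1, drives many of these genes, and androgens are known to raise lipid synthesis in prostate cancer cells.

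Promoter windows are shown for 6 genes whose levels differed clearly between the groups, to place motif letters beside the measured genes. They are the 4 lower and the 2 higher genes with the smallest adjusted p among the 21 genes of the set with exactly 1 start in the table of RefSeq promoter windows (GRCh38.p14). Each window has 300 bases, 250 before the start and 50 from it onwards, written 5′ to 3′ on the strand of the gene. Capitals mark the E-box CACGTG and the NF-Y box CCAAT, which reads ATTGG on the opposite strand. The windows are ELOVL5 chr6:53348901-53349200 on the minus strand, SREBF1 chr17:17836937-17837236 on the minus strand, ACSL3 chr2:222860786-222861085 on the plus strand, ELOVL7 chr5:60844220-60844519 on the minus strand, PLIN2 chr9:19127443-19127742 on the minus strand and ELOVL4 chr6:79947504-79947803 on the minus strand.
ELOVL5: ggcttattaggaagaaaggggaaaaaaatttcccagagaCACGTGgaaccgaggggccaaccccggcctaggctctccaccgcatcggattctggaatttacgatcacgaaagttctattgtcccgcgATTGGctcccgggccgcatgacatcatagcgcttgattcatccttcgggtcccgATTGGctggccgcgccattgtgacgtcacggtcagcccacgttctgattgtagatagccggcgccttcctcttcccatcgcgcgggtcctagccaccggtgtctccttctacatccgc
SREBF1: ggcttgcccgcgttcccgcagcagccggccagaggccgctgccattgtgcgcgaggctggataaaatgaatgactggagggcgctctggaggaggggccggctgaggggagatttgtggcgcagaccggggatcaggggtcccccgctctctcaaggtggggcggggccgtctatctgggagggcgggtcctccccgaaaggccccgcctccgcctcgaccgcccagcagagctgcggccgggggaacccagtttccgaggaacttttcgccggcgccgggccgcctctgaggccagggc
ACSL3: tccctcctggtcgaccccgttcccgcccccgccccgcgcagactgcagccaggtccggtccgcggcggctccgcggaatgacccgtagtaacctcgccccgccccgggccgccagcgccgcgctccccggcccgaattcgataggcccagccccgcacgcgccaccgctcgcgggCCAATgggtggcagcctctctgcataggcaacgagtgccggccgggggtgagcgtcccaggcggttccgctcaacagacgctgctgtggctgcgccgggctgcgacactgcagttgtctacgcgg
ELOVL7: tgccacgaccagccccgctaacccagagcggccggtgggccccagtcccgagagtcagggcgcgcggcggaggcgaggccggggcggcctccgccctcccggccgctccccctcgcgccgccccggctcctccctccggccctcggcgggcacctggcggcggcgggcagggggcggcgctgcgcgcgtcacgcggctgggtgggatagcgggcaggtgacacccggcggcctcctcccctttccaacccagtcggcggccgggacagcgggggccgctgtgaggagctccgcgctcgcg
PLIN2: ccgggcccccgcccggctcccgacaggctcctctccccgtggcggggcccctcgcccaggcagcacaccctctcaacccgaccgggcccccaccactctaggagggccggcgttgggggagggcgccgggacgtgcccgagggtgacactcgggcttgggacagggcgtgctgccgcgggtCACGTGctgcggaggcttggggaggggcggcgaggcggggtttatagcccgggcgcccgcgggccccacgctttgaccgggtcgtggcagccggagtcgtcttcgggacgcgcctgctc
ELOVL4: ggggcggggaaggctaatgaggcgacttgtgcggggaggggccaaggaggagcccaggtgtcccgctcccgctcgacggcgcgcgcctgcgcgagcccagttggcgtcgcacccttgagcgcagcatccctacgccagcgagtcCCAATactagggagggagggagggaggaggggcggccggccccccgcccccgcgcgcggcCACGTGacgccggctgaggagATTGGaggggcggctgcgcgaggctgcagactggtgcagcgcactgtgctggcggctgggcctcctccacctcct
The first 4 genes were lower and PLIN2 and ELOVL4 were higher in resistant cells. The ELOVL5 window held an E-box that began 211 bases before the start and NF-Y boxes at 122 and 68 bases. In ACSL3 the NF-Y box began 75 bases before the start, and in PLIN2 the E-box began 69 bases before it. ELOVL4 held an E-box at 46 bases and NF-Y boxes at 106 and 25 bases. The windows of SREBF1 and ELOVL7 held none of the letters searched.

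In all, 4 motifs were searched on both strands in the first listed window of each gene, which was at hand for 37 genes of the set and for 27305 genes in all. Of the 37, 21 had 1 listed window only. For the others, FADS2 among them, the first listed window may not hold the main start. A match describes letters and not a bound site. The E-box CACGTG was found in 3 of the 37 windows (8.11%), against 7.43% of all windows, and these were ELOVL5, PLIN2 and ELOVL4. The NF-Y box CCAAT was found in 16 windows (43.2%), against 35.7% of all. It was found in 5 of 15 windows of genes that were lower, in 5 of 10 that were higher and in 6 of 12 that were not called. TCACNCCAC, the letters of a classic sterol response element, was found in 1 window (PNPLA2), against 1.15% of all windows, and AGAACA, the hexamer of androgen response elements, in 0 of 37, against 14.9%. The genes without a window were FASN, DGAT1, DGAT2, FABP5 and MGLL.

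Most of the high-level genes of the set were lower in resistant cells, while most of those that were higher started from low levels. The limma test on log2(FPKM + 0.1), two-sided and with Benjamini-Hochberg adjustment over all genes tested, called 28 of 42 genes (66.7%) at an adjusted p below 0.05, against 44.4% of all genes tested. Of these, 17 were lower (40.5%, against 22.3% of all genes) and 11 were higher (26.2%, against 22.1%). The share of higher genes was near that of all genes. At least 2-fold as well were 14 of the lower genes, with 13.6% of all genes past both limits, and 9 of the higher genes, with 15% of all. The libraries of the groups did not overlap for 31 genes (73.8%), against 54.8% of all genes. The median log2 fold change was -0.23 over the 42 genes and -0.05 over all genes tested. Fold changes on this scale understate the change of low genes.

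The directions were also counted by level. Of 25 genes that averaged 10 FPKM or more, 15 were lower (60% of them), against 31.6% of all genes at that level, and 2 were higher (8%), against 25.2%. Of the 13 genes between 1 and 10 FPKM, 6 were higher, against 24.7% of all genes at that level, and 2 were lower, against 24.4%. Of the 4 genes below 1 FPKM, 3 were higher, against 16.3% of all, and 0 were lower, against 10.2%, by limma (0 also at an unadjusted p below 0.05). In 6 of the 11 higher genes (ELOVL3, ELOVL4, ACSL5, GPAT2, FABP5 and LIPE) the parental mean was below 0.1 FPKM, so that they entered the test through their resistant values alone and could be called in 1 direction only. They are all 3 of the higher genes below 1 FPKM and 3 of the 6 between 1 and 10 FPKM, so nothing is read from the counts at low level. Among the other 36 genes, 17 were lower (47.2%), against 25.3% of all genes with a parental mean of at least 0.1 FPKM, and 5 were higher (13.9%), against 18.1%.

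**Figure D1:**
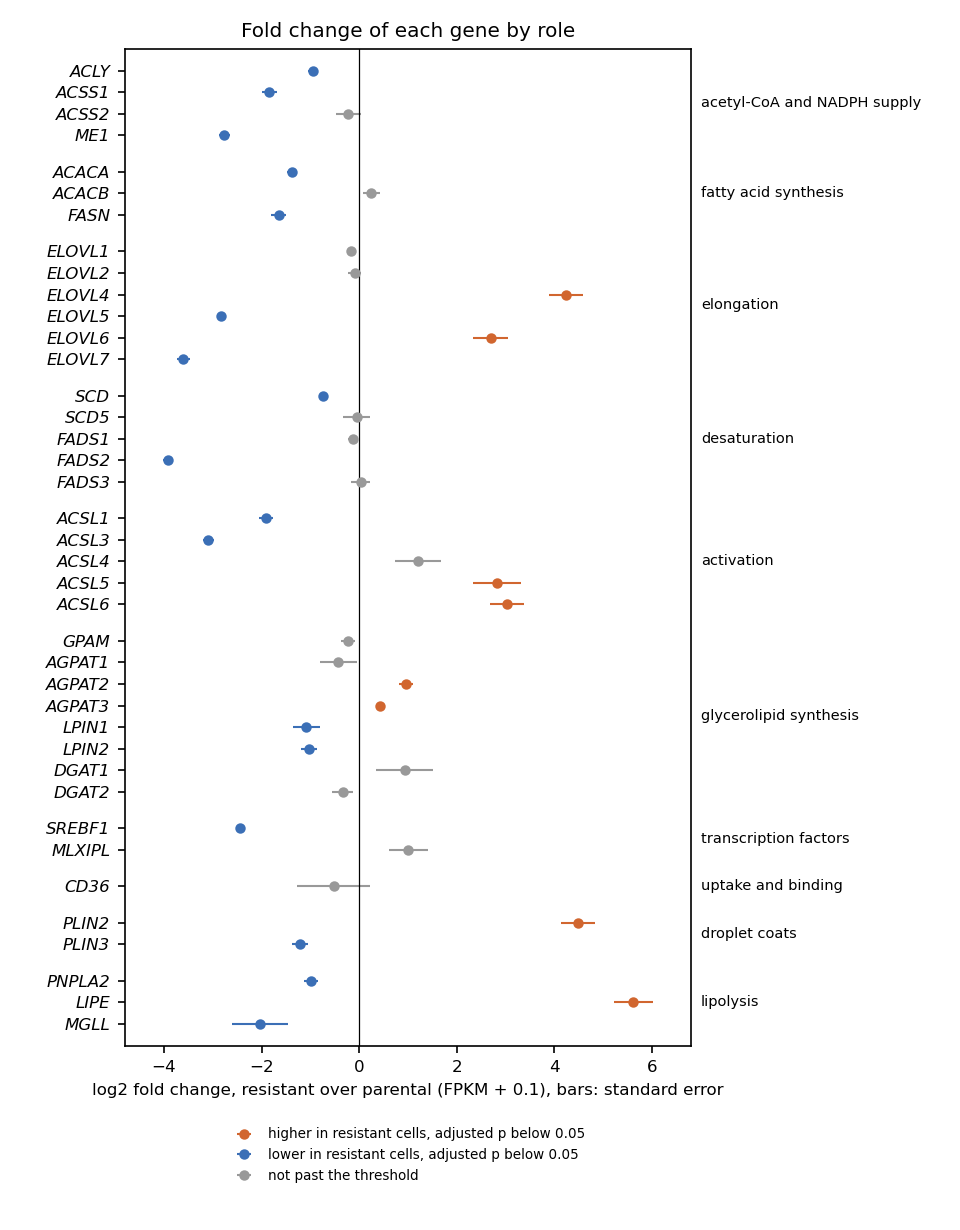
Log2 fold change of resistant over parental cells on the FPKM + 0.1 scale (x axis) for 39 genes of the set grouped by role (y axis), with points for the limma estimate and bars for its standard error. Genes listed at 0 in all parental libraries (ELOVL3, GPAT2 and FABP5) are left out, and the estimates run from -3.91 for FADS2 to 5.61 for LIPE.

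Summed over the set, parental libraries gave 4304, 3999 and 4265 FPKM and resistant libraries 1385, 1418 and 1382 FPKM. The sum was thus 4189 ± 166 (SD, n = 3) against 1395 ± 20 (SD, n = 3), 3-fold lower in resistant cells. The set made up 0.704%, 0.694% and 0.689% of the summed FPKM of protein-coding genes in parental libraries and 0.247%, 0.235% and 0.234% in resistant libraries. FASN, ACSL3 and SREBF1 had the 3 highest group means of the set in parental cells, and FASN, ACLY and SREBF1 in resistant cells, where the libraries of SREBF1 and ACACA overlapped.

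The genes that supply acetyl-CoA and NADPH were lower for 3 of 4 (75%, against 22.3% of all genes tested). Counts by role, here and below, cover few genes each and are descriptions. ME1, the cytosolic malic enzyme that yields NADPH (chr6:83210402-83431051, minus strand, GRCh38), had 24.2, 27.4 and 24.4 FPKM in parental libraries and 3.65, 3.91 and 3.42 FPKM in resistant libraries. The resistant values were 6.92-fold lower, the groups lay far apart, and the log2 fold change was -2.76 (SE 0.12, adjusted p = 1.96e-05). ACLY, which cleaves citrate to acetyl-CoA, had 316, 268 and 316 FPKM in parental and 142, 166 and 162 FPKM in resistant libraries. Every resistant value was below every parental value, and ACLY fell by 0.94 on the log2 scale (adjusted p = 5.47e-04). ACSS1, which makes acetyl-CoA from acetate in mitochondria, had 7.65, 8.38 and 8.16 FPKM against 2.42, 1.87 and 2.31 FPKM and fell by 1.84 on the log2 scale (adjusted p = 2.83e-04). ACSS2, the cytosolic and nuclear acetate enzyme, had 29.2, 48.7 and 28 FPKM in parental and 31.8, 23.3 and 33.8 FPKM in resistant libraries. Its groups overlapped, and the 95% interval of its log2 difference ran from -0.83 to 0.38.

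Both highly expressed enzymes of chain synthesis were lower. FASN (chr17:82078338-82098294, minus strand), which builds palmitate, had 807, 734 and 727 FPKM in parental and 301, 231 and 200 FPKM in resistant libraries. It was 3.1-fold lower without overlap, and its log2 fold change was -1.65 (SE 0.15, adjusted p = 3.06e-04). ACACA, the cytosolic acetyl-CoA carboxylase that provides malonyl-CoA for synthesis, had 222, 282 and 269 FPKM against 99.4, 94.1 and 103 FPKM. It was 2.61-fold lower, again without overlap (adjusted p = 1.42e-04). ACACB, the carboxylase of the mitochondrial surface that restrains fatty acid oxidation, had 8.23, 11.9 and 12.2 FPKM against 14.3, 11.8 and 12.1 FPKM and was not called (log2 difference 0.25, adjusted p = 0.312). Within a library, where the scaling between libraries cancels, ACACA stood at 24.2 ± 2.47 times ACACB in parental and 7.82 ± 0.782 times in resistant cells (SD, n = 3). FASN stood at 2.98 ± 0.572 times ACACA in parental and 2.48 ± 0.539 times in resistant cells, which differ by less than the spread. These and the other ratios below were picked after the values had been seen and are descriptions.

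**Figure D2:**
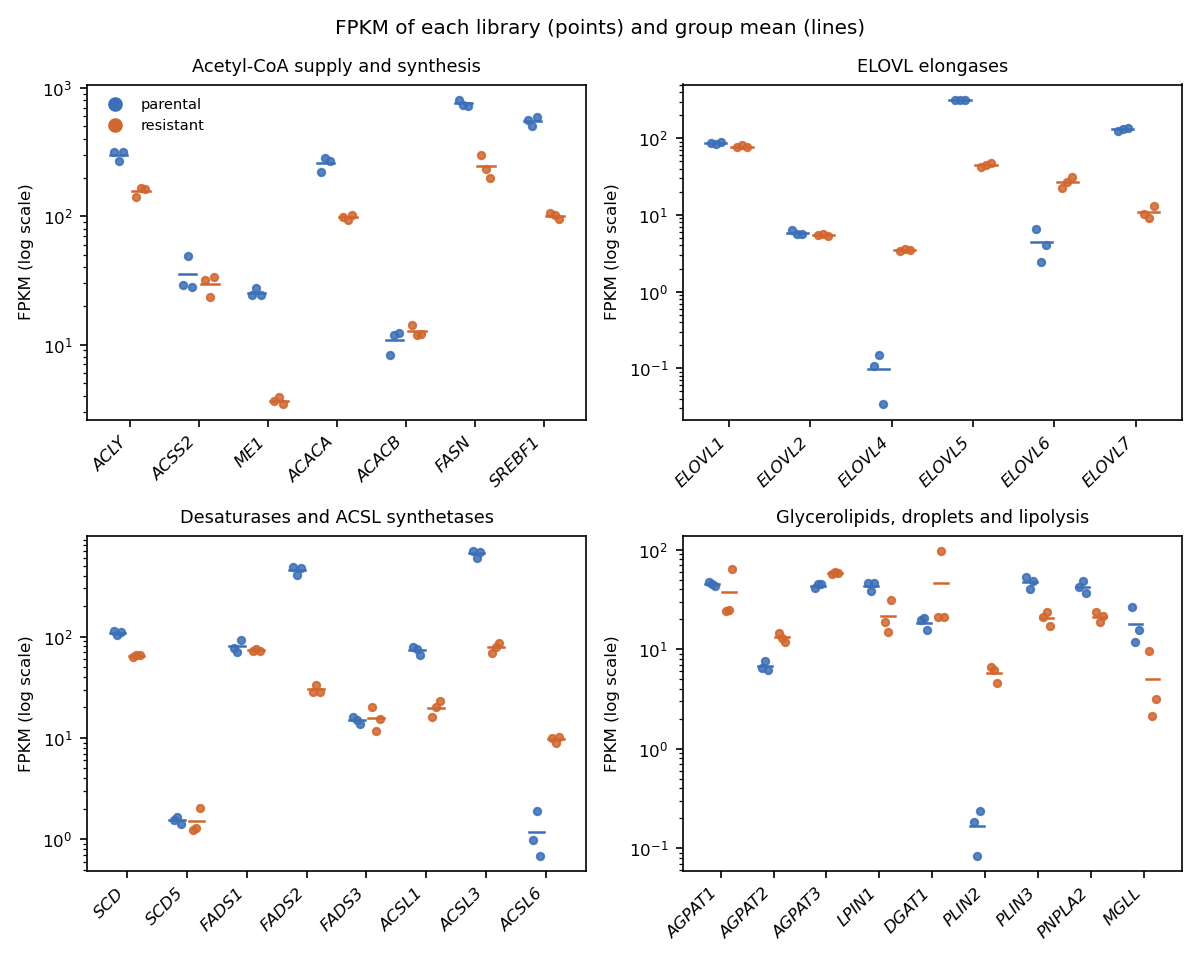
FPKM on a log axis (y) of each parental and resistant library (points, with lines for the group means) for genes of supply and synthesis, the ELOVL elongases, desaturases with ACSL synthetases, and glycerolipid, droplet and lipolysis genes (x). ELOVL5, ELOVL7, FADS2 and ACSL3 lie far lower and ELOVL6, ACSL6 and PLIN2 far higher in resistant libraries, and FADS1 lies at 73 to 74.9 FPKM there, within its parental range of 71.3 to 92.1 FPKM.

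The ELOVL elongases went in both directions, with 2 of 7 lower (28.6%, against 22.3% of all genes tested) and 3 higher (42.9%, against 22.1%). Of these 3, ELOVL3 and ELOVL4 had a parental mean below 0.1 FPKM and could be called higher only, so nothing is read from the share of higher elongases. ELOVL5, which elongates polyunsaturated chains (chr6:53267398-53349179, minus strand), had 314, 318 and 316 FPKM in parental and 42.4, 44.7 and 46.9 FPKM in resistant libraries. It was 7.08-fold lower, and its replicates spread little (log2 fold change -2.82, SE 0.06, adjusted p = 2.84e-06). Its promoter window is the first shown above. ELOVL7, an elongase of saturated and very long chains (chr5:60751791-60844274, minus strand), had 124, 134 and 136 FPKM against 10.4, 9.05 and 13.1 FPKM, a 12.1-fold lower level (log2 fold change -3.60, adjusted p = 1.55e-05). ELOVL6, which takes palmitate to stearate (chr4:110045846-110199199, minus strand), was opposite. It had 6.61, 2.45 and 4.09 FPKM in parental and 22.6, 26.8 and 31.2 FPKM in resistant libraries and rose 6.13-fold (log2 fold change 2.69, SE 0.35, adjusted p = 0.00128).

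ELOVL4, which makes the longest chains of the family, had 0.108, 0.15 and 0.0339 FPKM in parental and 3.42, 3.63 and 3.45 FPKM in resistant libraries. The parental values correspond to an estimated 6, 9 and 1 reads and the resistant values to 169, 168 and 139 reads, and the log2 fold change was 4.24 (adjusted p = 2e-04). ELOVL3 was at 0 in every parental library as listed and lay between 0.278 and 0.503 FPKM, an estimated 5 to 10 reads, in the resistant libraries (adjusted p = 0.00777), which is a low level in both groups. ELOVL1, an elongase of saturated very long chains that many tissues express, had 85.6, 85.1 and 90.4 FPKM against 75.8, 82 and 76.3 FPKM. Its groups did not overlap, but the difference missed the threshold (log2 difference -0.16, adjusted p = 0.102). ELOVL2, an elongase of long polyunsaturated chains, had 6.37, 5.72 and 5.6 FPKM against 5.54, 5.71 and 5.38 FPKM and was not called.

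The family sum of the elongases was 545 ± 8.11 FPKM in parental and 170 ± 8.38 FPKM in resistant cells (SD, n = 3), and the order within it differed. In parental libraries ELOVL5 held 58.1% of the sum on average, ELOVL7 24%, ELOVL1 16% and ELOVL6 0.807%. In resistant libraries ELOVL1 held 46%, ELOVL5 26.3%, ELOVL6 15.8% and ELOVL7 6.37%. Each of these neighbours in the resistant order was apart from the next in every library, and in the parental order the ranges of ELOVL2 and ELOVL6 overlapped. ELOVL5 stood at 3.66, 3.74 and 3.5 times ELOVL1 in parental and at 0.56, 0.545 and 0.614 times in resistant libraries. ELOVL6 stood at 0.0139 ± 0.00674 times ELOVL5 in parental and at 0.599 ± 0.0673 times in resistant cells.

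**Figure D3:**
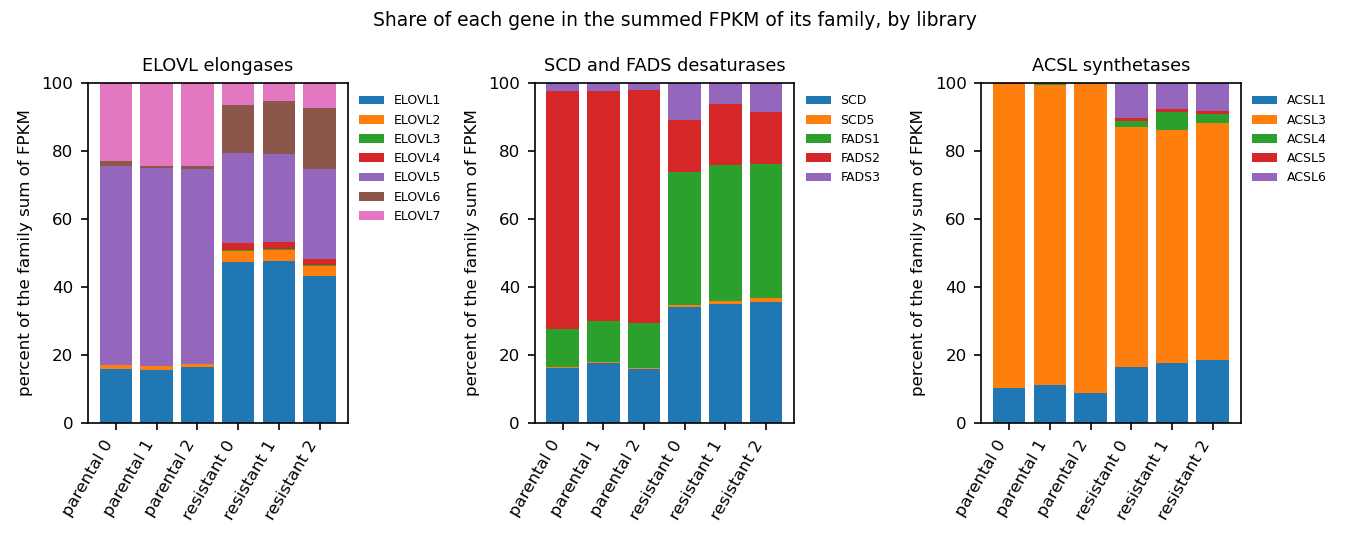
Stacked bars of the percent of the summed FPKM of a family (y axis, from 0) that each gene made up in each parental and resistant library (x axis), for the ELOVL elongases, the SCD and FADS desaturases and the ACSL synthetases. ELOVL5, FADS2 and ACSL3 hold 58.1%, 68.7% and 89.6% of their families on average in parental libraries and 26.3%, 16.2% and 69.6% in resistant libraries.

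Of the 5 desaturases, FADS2 and SCD were lower (40%, against 22.3% of all genes tested) and the others were not called. FADS2, the delta-6 desaturase that starts the polyunsaturated pathway (chr11:61792980-61867354, plus strand), had 487, 404 and 472 FPKM in parental and 28.6, 33.3 and 28.5 FPKM in resistant libraries. It was 15.1-fold lower, with a log2 fold change of -3.91 (SE 0.10, adjusted p = 4.6e-06). FADS1, the delta-5 desaturase of the same pathway (chr11:61799627-61829318, minus strand), had 77.6, 71.3 and 92.1 FPKM against 73, 74.9 and 73 FPKM. These groups overlapped, and the interval of the log2 difference, from -0.37 to 0.13, lies far from the change of FADS2. FADS2 stood at 6.27, 5.66 and 5.13 times FADS1 in parental libraries and at 0.392, 0.445 and 0.39 times in resistant libraries. The ratio was thus above 1 in all parental and below 1 in all resistant libraries.

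FADS1 and FADS2 lie on opposite strands, and their spans in GENCODE v44 share 29692 bases. The kit keeps strand, but use of the strand in counting is not given in the sources used here, so that reads in shared exons may have been split between them. The other genes of the locus moved in several directions. FEN1, a DNA repair nuclease gene that overlaps the FADS2 span, was not called (log2 difference 0.15, adjusted p = 0.226), TMEM258 was slightly higher (0.45, adjusted p = 0.0161), MYRF was higher (3.78) and DAGLA was lower (-1.08). FADS3, a desaturase of sphingolipid bases beside FADS2, had 16.1, 15.2 and 13.6 FPKM against 20.1, 11.7 and 15.3 FPKM and was not called.

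**Figure D4:**
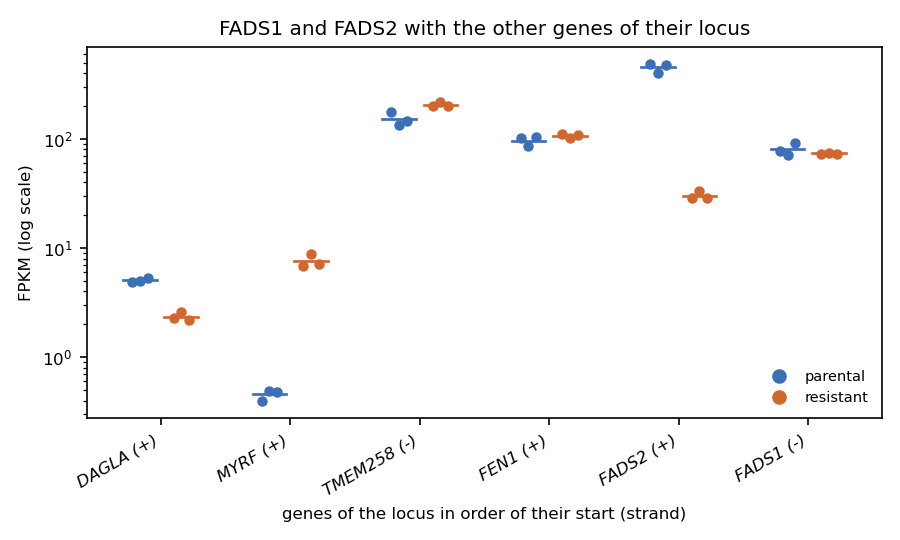
FPKM on a log axis (y) of each parental and resistant library (points, lines for the group means) for FADS1, FADS2 and the other genes shown of their locus in order of their start, with the strand in brackets (x). FADS2 falls from 454 to 30.2 FPKM on average, while FADS1 averages 80.3 and 73.7 FPKM.

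SCD, which makes oleate and palmitoleate, had 113, 105 and 110 FPKM in parental and 63.3, 65.5 and 65.8 FPKM in resistant libraries. It was 1.69-fold lower without overlap (log2 fold change -0.75, adjusted p = 2.16e-04), against -3.91 for FADS2. SCD5, its low-level relative, had 1.56, 1.67 and 1.4 FPKM against 1.24, 1.29 and 2.05 FPKM and was not called. The desaturases summed to 660 ± 55.4 FPKM in parental and 186 ± 1.05 FPKM in resistant cells (SD, n = 3). FADS2 made up 68.7% of the parental sum and 16.2% of the resistant sum, FADS1 12.2% and 39.6%, and SCD 16.6% and 34.9%.

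Of the 5 ACSL synthetases, the 2 most abundant were lower and 2 of the rarer ones were higher. Each direction thus held 40%, against 22.3% lower and 22.1% higher of all genes tested. Of the 2 higher ones, ACSL5 had a parental mean below 0.1 FPKM and could be called higher only. ACSL3, an acyl-CoA synthetase of the endoplasmic reticulum and lipid droplets (chr2:222860942-222944639, plus strand), had 701, 603 and 691 FPKM in parental and 68.8, 79.4 and 86.9 FPKM in resistant libraries. It was 8.49-fold lower (log2 fold change -3.09, SE 0.11, adjusted p = 1.05e-05). ACSL1, which serves both storage and oxidation, had 79.9, 76.4 and 66.4 FPKM against 16, 20.4 and 23.3 FPKM and fell by 1.91 on the log2 scale (adjusted p = 1.89e-04). ACSL6, best known from brain and red cell precursors, had 0.983, 1.89 and 0.687 FPKM in parental and 9.99, 8.82 and 10.2 FPKM in resistant libraries. It rose 8.17-fold (log2 fold change 3.03, adjusted p = 7.74e-04).

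ACSL5, a mitochondrial and reticular form, had 0.0715, 0 and 0.189 FPKM against 0.96, 1.26 and 1.12 FPKM and was higher (log2 fold change 2.82, adjusted p = 0.00424). ACSL4, which prefers arachidonate, had 1.14, 1.79 and 1.12 FPKM against 1.66, 5.82 and 3.28 FPKM. The groups of ACSL4 overlapped and the resistant values spread widely (log2 difference 1.2, adjusted p = 0.0832). Without resistant replicate 0 the adjusted p was 0.0233, and with any other library left out it ran from 0.0899 to 0.207. The synthetases summed to 742 ± 52.2 FPKM in parental and 113 ± 14 FPKM in resistant cells (SD, n = 3), 6.59-fold lower, and ACSL3 was the highest of them in both groups, with 89.6% and 69.6% of the sum.

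The 9 enzymes of glycerolipid assembly summed to 189 ± 4.64 FPKM in parental and 215 ± 41.4 FPKM in resistant cells (SD, n = 3). The resistant sums of 168, 247 and 229 FPKM lay on both sides of the parental 194, 186 and 187 FPKM. The 247 FPKM included 97 FPKM of DGAT1 and the 229 FPKM included 64.4 FPKM of AGPAT1, each far above the other resistant libraries. Of the 9, 3 were higher (33.3%, against 22.1% of all genes tested) and 2 were lower (22.2%, against 22.3%). GPAT2, a mitochondrial glycerol phosphate acyltransferase known from testis (chr2:96021946-96039451, minus strand), was listed at 0 in all parental libraries and had 13.7, 15.3 and 15.9 FPKM in resistant libraries (adjusted p = 8.79e-06). No fold change is given for it, and it could be called higher only. Its relative GPAM, the main mitochondrial form, had 7.94, 8.2 and 6.84 FPKM against 5.82, 6.7 and 6.97 FPKM and was not called (log2 difference -0.23, adjusted p = 0.225), so that GPAT2 was above GPAM in all resistant libraries and below it in all parental ones.

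AGPAT2 and AGPAT3 add the second acyl chain, and both were higher. AGPAT2 had 6.43, 7.62 and 6.14 FPKM in parental and 14.5, 13.1 and 11.8 FPKM in resistant libraries (log2 fold change 0.96, adjusted p = 0.00212). AGPAT3 had 40.9, 44.9 and 45.3 FPKM against 57.4, 59.8 and 58 FPKM (log2 fold change 0.42, adjusted p = 0.00434). AGPAT1, which catalyses the same step, had 47.6, 45.4 and 43.5 FPKM against 24.2, 24.6 and 64.4 FPKM. Resistant replicate 2 stood above all parental libraries while the other resistant libraries stood below them, and AGPAT1 was not called (adjusted p = 0.391). Without that library its log2 fold change was -0.89 (adjusted p = 0.00185), and with any other library left out the adjusted p ran from 0.47 to 0.736. PPT2, a gene close to AGPAT1 on the opposite strand, had 32.3, 37 and 23.1 FPKM in the same resistant libraries. Its lowest value was where AGPAT1 was highest, but their spans share 0 bases. Summed, AGPAT1 and PPT2 still differed there, at 56.6, 61.6 and 87.5 FPKM. PPT2 was itself higher than in parental libraries (log2 fold change 1.91, adjusted p = 0.00735). How the authors' counting divided reads among the genes of this dense locus was not tested.

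The lipins, which turn phosphatidate into diacylglycerol, were lower for both measured members of the set. LPIN1 had 46.7, 38.2 and 46 FPKM in parental and 18.6, 14.8 and 31 FPKM in resistant libraries (log2 fold change -1.08, adjusted p = 0.0175). Its call was lost without parental replicate 0, parental replicate 2 or resistant replicate 0, with adjusted p values of 0.0576, 0.0551 and 0.063. LPIN2 had 9.11, 8.47 and 8.98 FPKM against 3.46, 5.03 and 4.49 FPKM (log2 fold change -1.03, adjusted p = 0.00359). The last step to triacylglycerol is shared by DGAT1 and DGAT2, and neither was called. DGAT1 had 19.5, 20.5 and 15.5 FPKM against 21, 97 and 21.3 FPKM, where resistant replicate 1 stood far from the others. Without that library its log2 difference was 0.20 (adjusted p = 0.337). DGAT2 had 16.2, 12.5 and 14.8 FPKM against 9.26, 10.5 and 15.1 FPKM, and without resistant replicate 2 it passed the threshold (log2 fold change -0.54, adjusted p = 0.048). With any other library left out its adjusted p ran from 0.185 to 0.498.

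SREBF1, the gene of SREBP-1 (chr17:17810399-17837002, minus strand), had 557, 505 and 590 FPKM in parental and 106, 102 and 95.6 FPKM in resistant libraries. It was 5.43-fold lower, with a log2 fold change of -2.44 (SE 0.08, adjusted p = 8.38e-06). The level of SREBF1 is the sum over its transcripts, as the table does not separate the 1a and 1c forms. SREBF2, the gene of the sterol-directed relative SREBP-2, had 86.7, 78.9 and 86 FPKM against 93.7, 91.1 and 97.2 FPKM and was not called (log2 difference 0.17, adjusted p = 0.098). SREBF1 stood at 6.56 ± 0.255 times SREBF2 in parental and at 1.08 ± 0.0839 times in resistant cells. MLXIPL, the gene of the carbohydrate-responsive factor ChREBP, had 1.7, 1.5 and 1.01 FPKM against 4.73, 2.56 and 1.93 FPKM. Its groups did not overlap, but it missed the threshold (log2 difference 1.01, adjusted p = 0.078).

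Genes of uptake and binding were near 0. CD36, a fatty acid translocase, lay between 0 and 0.284 FPKM over the 6 libraries and was not called. FABP5, a cytosolic fatty acid carrier, had 1.44, 0.456 and 1.15 FPKM in resistant libraries after being listed at 0 in every parental one (adjusted p = 0.00241). FABP5 has many processed pseudogenes, and reads that match several copies may have been lost or moved, so that its level is uncertain.

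The droplet coat genes went in opposite directions. PLIN2, whose protein is stable mainly when bound to lipid droplets (chr9:19108375-19149290, minus strand), had 0.186, 0.0844 and 0.237 FPKM in parental and 6.6, 6.24 and 4.54 FPKM in resistant libraries. It rose 34.3-fold from a level near 0 (log2 fold change 4.48, adjusted p = 1.47e-04). PLIN3, a coat protein that also occurs in the cytosol, had 53.7, 40.6 and 48.8 FPKM against 21.2, 23.7 and 17 FPKM and fell by 1.21 on the log2 scale (adjusted p = 0.00138). PLIN3 was still above PLIN2 in all resistant libraries, at 3.59 ± 0.325 times its level, against 325 ± 141 times in parental cells.

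All 3 lipases were called, 2 lower and 1 higher, where 44.4% of all genes tested were called. The higher one, LIPE, had a parental mean below 0.1 FPKM and could be called higher only. PNPLA2, the gene of the triacylglycerol lipase ATGL, had 42, 48.1 and 37.1 FPKM in parental and 23.7, 18.6 and 21.7 FPKM in resistant libraries (log2 fold change -0.99, adjusted p = 0.00163). LIPE, the gene of hormone-sensitive lipase (chr19:42401514-42427388, minus strand), had 0, 0 and 0.0973 FPKM against 5.09, 7.8 and 5.45 FPKM and was higher (log2 fold change 5.61, SE 0.40, adjusted p = 1.19e-04). The whole LIPE span lies within LIPE-AS1 on the other strand, which had 43.2, 62.8 and 24.6 FPKM against 20.1, 11.5 and 15.2 FPKM and was lower (log2 fold change -1.41, adjusted p = 0.0212). MGLL, the monoacylglycerol lipase, had 26.6, 11.8 and 15.5 FPKM against 9.66, 2.16 and 3.2 FPKM. MGLL was lower without overlap but had the largest SE of the 28 called genes (log2 fold change -2.03, SE 0.58, adjusted p = 0.0294), and its call was lost in 5 of the alternatives, with adjusted p values from 0.054 to 0.102.

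Other genes of the pathway were read from a list of 93 that are not in the set, of which 84 were tested. Of the 84, 27 were lower (32.1%, against 22.3% of all genes tested) and 21 were higher (25%, against 22.1%), with a median log2 fold change of -0.16. Of all genes averaging 10 FPKM or more, a level that many of the 84 reached, 31.6% were lower and 25.2% higher. The shares of the list are near these, and nothing is read from them. The regulators held 7 lower (41.2%) and 1 higher (5.88%) of 17. Of all genes tested, 22.3% were lower and 22.1% higher, and at 10 FPKM or more 31.6% and 25.2%. Most of the 17 were at that level, and nothing is read from these counts. INSIG1, an SREBP target that retains the SREBP complex, fell by 0.84 on the log2 scale (adjusted p = 3.69e-04), and MID1IP1, an activator of acetyl-CoA carboxylase, fell by 1.02 (adjusted p = 1.4e-04). SCAP, the SREBP escort, was not called (log2 difference -0.15, adjusted p = 0.154). PRKAA1, the AMP-activated kinase subunit that restrains the carboxylases, was the higher one, at a log2 fold change of 0.41 (adjusted p = 0.0218). Partners of the elongases in the elongation cycle were higher for 3 of 5 (60%, against 22.1%) and lower for 1 (20%, against 22.3%). All but HACD1 averaged 10 FPKM or more, where 25.2% of all genes were higher and 31.6% lower. HACD1 was higher at a low level, with a mean of 0.141 FPKM in parental and 0.704 FPKM in resistant cells (limma adjusted p = 0.0463). Among the partners HSD17B12, the ketoacyl-CoA reductase, had 30, 34.3 and 34.5 FPKM against 53.1, 55.6 and 54.1 FPKM (log2 fold change 0.72, adjusted p = 7.92e-04), while HACD2, a dehydratase, fell by 0.97 on the log2 scale (adjusted p = 0.00107).

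By the rule for naming, the pathway genes with the largest rises were ME3, PLIN5 and SLC27A3, and those with the largest falls LPL, ACSM1 and PPARG. ME3, a mitochondrial malic enzyme, had 0, 0.0618 and 0 FPKM in parental and 7.61, 5.4 and 4.19 FPKM in resistant libraries (log2 fold change 5.59, adjusted p = 9.99e-05). PLIN5, a coat protein of oxidative tissues, had 0, 0 and 0.0756 FPKM against 3.06, 4.77 and 4.52 FPKM (log2 fold change 5.10, adjusted p = 1.59e-04). Both had a parental mean below 0.1 FPKM, entered the test through their resistant values alone and could be called higher only. SLC27A3, an acyl-CoA synthetase of the transport protein family, rose 9.24-fold, from 4.73 ± 1.26 to 43.7 ± 4.65 FPKM (SD, n = 3, limma adjusted p = 6.83e-05). LPL, the lipoprotein lipase, fell from 14.8 ± 3.56 to 0.81 ± 0.314 FPKM (SD, n = 3, limma adjusted p = 1.42e-04). ACSM1, a medium-chain synthetase, fell by 3.76 on the log2 scale (adjusted p = 3.06e-04), and PPARG, a nuclear receptor for fatty acids, fell by 2.94 (adjusted p = 0.0249). DBI, the acyl-CoA binding protein, was singled out after its values were seen, with 345, 350 and 351 FPKM in parental and 54.6, 62.5 and 55.8 FPKM in resistant libraries (log2 fold change -2.60, adjusted p = 4.69e-06).

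Libraries were estimated at 13700000 to 20600000 reads, at which 1 read on a transcript of 2000 bases is worth 0.0269 to 0.0406 FPKM. All 8 prostate luminal markers were above 1 FPKM in both groups. Their summed level was 3982 to 4683 FPKM in parental and 869 to 941 FPKM in resistant libraries, with 6 lower, among them the androgen-induced genes KLK3 and TMPRSS2. This move of the summed luminal markers goes in the direction of most high-level lipid genes, and its part in their change was not tested. The 5 adipocyte markers summed to 0.0523 to 0.264 FPKM in parental and 0.0773 to 0.156 FPKM in resistant libraries, with FABP4 at 0 throughout. Their part in the changes of PLIN2 and LIPE was not tested. The 6 leukocyte markers summed to 0.0879 to 0.199 and 0.229 to 3.04 FPKM, with CD3E at 0 throughout. The 6 fibroblast markers summed to 8.04 to 10.9 and 8.34 to 15 FPKM, with 2 higher (DCN and LUM) and 1 lower, and their part in the changes of the set was not tested.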

How the data were processed

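Total RNA of 6 libraries was read as single-end reads of 50 bases. According to the methods, the deposited FPKM values came from Cufflinks 2.2.1, which the authors ran with GENCODE v25 on STAR 2.5.3 alignments to GRCh38 after trimming by TrimGalore 0.4.3. The processing labels instead name mm10, Trimmomatic 0.27 and FastQC 0.10.1, but the deposited gene identifiers and loci are human. The table does not name its unit, and scaling between libraries and use of strand are not given in the sources used here. FPKM keeps no read counts, so no count test was run.

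Values were tested as log2(FPKM + 0.1) for 24468 genes that averaged 0.1 FPKM or more, resistant against parental, with limma 3.58.1 (R 4.3.3, eBayes with a mean-variance trend, two-sided, Benjamini-Hochberg adjustment over all genes tested, threshold 0.05). The script was tested on simulated data. Fold values are ratios of group means of FPKM. An exact permutation test of 3 against 3 libraries cannot go below p = 0.1. Positions were taken from GENCODE v44 (56980 of 58024 identifiers matched), and promoter windows from RefSeq by symbol (37 of 42 genes matched). Read numbers were estimated from the steps of low FPKM values under an assumed fragment length of 200 bases.

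Genes having a group mean of at least 1 FPKM were given in every library. Pathway genes were named by the 3 largest rises and falls among called genes averaging 1 FPKM or more and no overlap. HSD17B12, HACD1, HACD2, INSIG1, MID1IP1, SCAP, PRKAA1, SREBF2 and DBI were named after their values were seen. The values of 1 luminal marker are not reported here. The genes of the set and all lists were chosen with earlier results of these data known. Alternatives covered the pseudocount, the filter, 3 scalings, the trend, a replicate block, thresholds and each library left out.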

Additional observations from a re-analysis of the deposited data

How the results depend on the processing

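The counts of lower and higher genes of the set stayed within 1.5 times under every alternative run. With each library left out in turn, 11 to 12 genes were higher, 15 to 18 lower, and 40 to 45 pathway genes called; under the other alternatives these were 8 to 13, 14 to 17 and 41 to 49, with the 8 reached at a mean of at least 1 FPKM, which tests fewer low genes. Of the 28 called genes, 26 (15 lower, 11 higher) were called under every alternative fit that tested them, LPIN1 and MGLL were not, and 0 turned direction. Asking for a change of at least 2-fold as well left 14 lower and 9 higher. Signs turned only for genes that were not called. With each library left out, the log2 difference of ACSS2 ran from -0.37 to 0.03 (above 0 without parental replicate 1), that of SCD5 from -0.27 to 0.07 (above 0 without parental replicate 1, at 0.01, or resistant replicate 0 or 1, at 0.07 and 0.05), and that of FADS3 from -0.16 to 0.23 (below 0 without resistant replicate 0 or, at -0.03, parental replicate 2). FADS1 came to 0.01 under quantile normalization, and FADS3 to -0.02 under median scaling. The replicate numbers pair the libraries by name only, as the deviations of same-numbered libraries correlated at 0.00802, 0.0165 and -0.00301. With a replicate block 13 genes were higher, 17 lower and 46 pathway genes called; ACSL4 (adjusted p = 0.0481) and MLXIPL (adjusted p = 0.0453) then passed in limma. Genes near the level of 1 read are limited by depth, and the FPKM table gives no counting error.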

Other observations

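Genes around the set that the account above does not name moved as follows, from the same limma fit on log2(FPKM + 0.1) with Benjamini-Hochberg adjustment. In mitochondrial fatty acid synthesis, a separate pathway that feeds lipoic acid production, 4 of 6 genes were lower (66.7%) and 1 was higher (16.7%). All 6 averaged 10 FPKM or more, and of all genes at that level 31.6% were lower and 25.2% higher. OXSM, the condensing enzyme of this pathway, had 41.2, 41 and 43.4 FPKM in parental and 29.5, 31.5 and 24.6 FPKM in resistant libraries. It fell by 0.56 on the log2 scale (adjusted p = 0.00674). MCAT, which loads malonyl units, fell by 0.66 (adjusted p = 0.0117) and MECR, its last reductase, by 0.59 (adjusted p = 0.0118). FASN in the cytosol fell by 1.65 on the same scale, and the difference was not tested.

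In the phospholipid branch, 4 of 12 tested genes were lower (33.3%, against 22.3% of all genes tested) and 3 were higher (25%, against 22.1%). Of all genes averaging 10 FPKM or more, 31.6% were lower and 25.2% higher, so nothing about the branch is read from these counts. PCYT1A, the rate-setting enzyme of phosphatidylcholine synthesis, had 37.9, 36.4 and 45.9 FPKM against 19.2, 19.6 and 22 FPKM and fell by 0.98 on the log2 scale (adjusted p = 9.12e-04). PCYT2, its counterpart for phosphatidylethanolamine, fell by 0.67 (adjusted p = 0.00726) and CHKA, a choline kinase, by 0.50 (adjusted p = 0.0078). The ethanolamine kinases, which act before PCYT2, were higher. ETNK2 had 0.7, 2 and 1.66 FPKM against 6.22, 10.5 and 14.3 FPKM (log2 fold change 2.78, adjusted p = 0.00351), the largest change of the branch, and ETNK1 rose by 0.91 on the log2 scale (adjusted p = 0.00233). CDS2, a CDP-diacylglycerol synthase, rose by 0.83 (adjusted p = 0.00199), and CEPT1, a choline and ethanolamine phosphotransferase, fell by 0.36 (adjusted p = 0.028). G0S2, an inhibitor of the lipase ATGL, had 0.0777, 0 and 0 FPKM against 0.724, 1.58 and 2.06 FPKM and was higher (log2 fold change 3.57, adjusted p = 0.00207), though with a parental mean below 0.1 FPKM it could be called higher only. ABHD5, the activator of that lipase, was not called (log2 difference -0.04, adjusted p = 0.929). MIR6777, a microRNA gene inside SREBF1 on the same strand, was listed at 290, 78 and 212 FPKM in parental libraries and at 0 in all resistant libraries. The annotated length of 66 bases is little more than 1 read of 50 bases, and whether its FPKM holds reads of SREBF1 was not tested. These genes were named after their values were seen.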
